A study of Mus musculus with 2 samples.

Results

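The 41 genes described here code for enzymes and regulators of glycolysis, the pentose phosphate pathway, the pyruvate dehydrogenase step and the tricarboxylic acid (TCA) cycle. They were chosen by symbol from a list of 41, and all 41 were found among the 31020 gene symbols of the matrices. In glycolysis there were 18 (Hk1, Hk2, Gpi1, Pfkl, Pfkp, Pfkm, Aldoa, Aldoc, Tpi1, Gapdh, Pgk1, Pgam1, Eno1, Pkm, Ldha, Ldhb and the regulators Pfkfb3 and Hif1a). The pentose phosphate pathway had 7 (G6pdx, Pgls, Pgd, Rpia, Rpe, Tkt, Taldo1), and pyruvate dehydrogenase with the TCA cycle had 16 (Pdha1, Pdhb, Dlat, Pdk1, Cs, Idh1, Idh2, Idh3a, Idh3g, Ogdh, Dlst, Suclg1, Sucla2, Fh1, Mdh1, Mdh2). Not all catalyse a step of the pathways: Hif1a is a transcription factor, Pdk1 a kinase that inhibits pyruvate dehydrogenase, and Pfkfb3 makes an activator of phosphofructokinase. Each of the 41 had at least 1 UMI (unique molecular identifier, 1 per captured RNA molecule) in both libraries.

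The study sequenced single CD4+ CD25+ T cells, YFP+ and YFP- together, from Mycfl/flFoxp3Cre/WT mice with the 10x 3′ V2 kit, in 1 library from lymph node and 1 from spleen. Every cell carries floxed alleles of Myc, a transcription factor that drives cell growth. Cre is expressed from the Foxp3 locus, so deletion is by design meant for cells in which that allele has been transcribed. Whether it also occurred in other cells was not tested. Foxp3, the lineage factor of regulatory T (Treg) cells, lies on the X chromosome, so a heterozygous animal is a mosaic in which some Treg cells use the Cre allele and the others the wild-type one. The sources used here do not state the sex, which heterozygosity for an X-linked gene implies to be female. The age and number of the animals, and which barcodes were YFP+, are not given there either. With 1 library for each tissue there is no replicate spread and no test was made. Every interval below is a 95% interval that covers counting error only, and tissue, animals and library cannot be told apart.

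Glycolysis turns glucose into pyruvate, and lactate dehydrogenase turns pyruvate into lactate while restoring the cofactor that the Gapdh step consumes. The pentose phosphate pathway branches off after the first step to make NADPH and ribose for nucleotides, and pyruvate dehydrogenase feeds carbon into the TCA cycle. In T cells, activation and division are known to come with higher expression of glycolytic enzymes. Many of these genes are known targets of Myc and of the hypoxia factor of which Hif1a encodes a subunit.

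Promoter sequences are shown for 4 genes of lower glycolysis. Tpi1, Gapdh and Pgk1 are named in gates below, and Ldha enters through the lactate dehydrogenase share. Other genes named in gates, among them Pgam1, Ldhb and Pdk1, are not shown. The 250 bases before the RefSeq gene start (GRCm38.p6) were searched on both strands for CACGTG, the E-box known to be bound by Myc, and for ACGTG, the core bound by the hypoxia factor, which every CACGTG also holds. Capitals mark the matches, CACGT being ACGTG read on the other strand, and each sequence runs 5′ to 3′ on the strand of the gene.
Ldha (chr7:46845554-46845803, plus strand): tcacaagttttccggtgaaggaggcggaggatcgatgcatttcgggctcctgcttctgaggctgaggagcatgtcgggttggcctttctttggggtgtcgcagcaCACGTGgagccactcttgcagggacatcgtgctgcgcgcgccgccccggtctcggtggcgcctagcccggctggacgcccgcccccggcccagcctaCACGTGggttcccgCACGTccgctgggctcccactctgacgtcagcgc
Pgk1 (chrX:106186850-106187099, plus strand): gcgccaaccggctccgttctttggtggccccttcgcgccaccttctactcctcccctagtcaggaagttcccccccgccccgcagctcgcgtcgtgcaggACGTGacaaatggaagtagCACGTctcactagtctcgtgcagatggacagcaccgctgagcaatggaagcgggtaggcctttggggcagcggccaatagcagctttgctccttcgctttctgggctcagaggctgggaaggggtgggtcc
Tpi1 (chr6:124814159-124814408, minus strand): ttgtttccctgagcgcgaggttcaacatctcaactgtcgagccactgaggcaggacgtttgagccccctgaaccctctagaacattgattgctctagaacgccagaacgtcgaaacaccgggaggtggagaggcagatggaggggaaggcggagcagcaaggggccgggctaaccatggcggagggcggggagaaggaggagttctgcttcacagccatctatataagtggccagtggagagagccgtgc
Gapdh (chr6:125165774-125166023, minus strand): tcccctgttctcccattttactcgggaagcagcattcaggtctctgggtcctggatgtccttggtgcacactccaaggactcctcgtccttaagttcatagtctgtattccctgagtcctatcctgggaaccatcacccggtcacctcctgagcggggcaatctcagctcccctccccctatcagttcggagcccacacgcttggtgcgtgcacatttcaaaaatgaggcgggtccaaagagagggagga

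By GENCODE M21 the Pgk1 window lies outside every transcript, the Ldha and Gapdh windows lie within introns of longer transcripts of their own genes, and 138 bases of the Tpi1 window lie in the first exon of a longer Tpi1 transcript, 114 of them coding. RefSeq lists 2 starts for Ldha. The window shown is that of the upstream one, and the window of the other held neither set of letters. The Ldha window shown held 2 E-boxes, starting 145 and 48 bases before the gene start, and a further ACGTG core 34 bases before it. The Pgk1 window held 2 ACGTG cores, 150 and 131 bases before the start, and no E-box. Neither set of letters was found in the Tpi1 or the Gapdh window, which says only that these letters are absent there. RefSeq entries were matched for 40 of the 41 genes, with 60 gene starts in all, and Idh3a was not matched. Of the 60 windows, 7 (11.7%) held an E-box and 21 (35%) an ACGTG core, where 6.02% and 16.6% of all 32851 windows of the same length did. Windows of 1 gene can overlap: by gene, 5 of 40 had an E-box (Hif1a, Ldha, Ogdh, Pfkfb3 and Pfkm) and 13 an ACGTG core. Of the 7 E-box windows 3 belong to Ogdh alone. No share by gene was counted over all genes, so a surplus by gene is not shown. None of the pentose phosphate genes had either set of letters. In the GENCODE M21 annotation of the same build Tpi1 spans chr6:124810586-124814296, Gapdh spans chr6:125161715-125166467, Pgk1 spans chrX:106187100-106203699, Ldha spans chr7:46841475-46855627, Ldhb spans chr6:142490249-142507957 and Pdk1 spans chr2:71873224-71903858, all protein-coding.

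The lymph node library kept 4820 cells with 13053739 UMIs (median 2031 per cell) and the spleen library 6543 cells with 16641089 UMIs (median 1935), and 45 cell barcodes occurred among the kept cells of both. Levels are CPM, a gene's UMIs per 1000000 UMIs summed over a group of cells, and where a pair of levels follows, the first is lymph node and the second spleen. Of the markers of the labelled cell type, 4 T cell markers summed to 3021 and 3014 CPM and 4 Treg markers to 1107 and 1154. Cd4 and Il2ra, the genes of the sorted proteins, are within these sums and were not read alone. B cell markers summed to 158 and 114 CPM, CD8 markers to 38 and 42.4, natural killer markers to 18.4 and 13.6 and myeloid markers to 4.6 and 21.3. Haemoglobin and other erythroid genes stood apart, at 326 and 0.961 CPM.

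Gates were read from raw UMIs. Cells with a Foxp3 UMI and no ICRE UMI, called Foxp3 cells here, numbered 982 and 1195. Cells with an ICRE UMI and no Foxp3 UMI, called ICRE cells, numbered 354 and 505, and both UMIs were found in 25 and 44 cells. ICRE is a feature in the gene table beside EYFP and CRE. CRE had 0 UMIs, and EYFP had 2, both in spleen, so neither could mark cells. At this depth a cell with 0 UMIs of a gene may still express it. Cells with a UMI of Klrg1, a receptor of terminally differentiated effector T cells, numbered 223 and 229. Cells with a UMI of Tnfrsf9 (4-1BB, a receptor induced by T cell receptor signals) numbered 896 and 1134, and those with Ly6c1, a surface protein of many resting and memory T cells, 923 and 1373. The gates share cells with one another. Myc itself was at 4.64 and 17 CPM in ICRE cells and 39.97 and 49.5 CPM in Foxp3 cells. The values in ICRE cells rest on 3 and 16 UMIs, with intervals of 0.956 to 13.5 and 9.71 to 27.6 CPM. In Klrg1 cells Myc was at 16.6 and 33.3 CPM, against 30.9 and 37.9 over all cells.

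The gates differed in UMIs per cell and in cycling markers, and these values stand beside every comparison between them. Foxp3 cells had a median of 2859.5 and 2941 UMIs, ICRE cells 1605.5 and 1635, Klrg1 cells 3209 and 3384, Tnfrsf9 cells 2459.5 and 2434 and Ly6c1 cells 1799 and 1884. The 4 cycling markers summed to 189.8 and 173 CPM in Foxp3 cells, 10.8 and 9.55 in ICRE cells, 281 and 396 in Klrg1 cells, 178 and 145 in Tnfrsf9 cells and 78.1 and 49.7 in Ly6c1 cells. Ribosomal protein genes took 29.5% and 28.9% of UMIs in ICRE cells and 27.6% and 25.2% in Klrg1 cells, against 33.9% and 33.1% in all cells. Each comparison was therefore also made with the cells of the other side reweighted over 10 strata of UMIs per cell. The weights give each stratum the cell numbers of the gated side, which is called depth-weighted below. The strata were cut from the gated cells alone, and the highest has no upper limit. Cells of the other side can be deeper within it, so a difference in depth can remain.

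Step by step over all kept cells, most reactions had at least 1 gene above a floor of 20 CPM (mean of the libraries). UMIs mark 3′ ends, once per molecule whatever the transcript length, so these CPM are shares of captured molecules. The floor was passed by 35 of the 41 genes: 14 of 18 in glycolysis, 6 of 7 in the pentose phosphate pathway and 15 of 16 in pyruvate dehydrogenase and the TCA cycle. The 6 below it were Hk2, Pfkm, Aldoc, Pfkfb3, G6pdx and Idh1. Glycolysis genes summed to 3447 and 3526 CPM, pentose phosphate genes to 625 and 621, and pyruvate dehydrogenase and TCA genes to 1229 and 1259.6.

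At the entry of glycolysis, Hk1, which phosphorylates glucose, stood at 46.8 and 44.8 CPM. Hk2, the hexokinase known to be induced on activation, stood at 3.14 and 5.89 CPM (41 and 98 UMIs) and made up 6.29% (4.55 to 8.43) and 11.6% (9.53 to 14) of the UMIs of the pair, exact binomial intervals in parentheses. Gpi1, which isomerises glucose 6-phosphate, was at 287 and 271 CPM. Phosphofructokinase, the committing step, was divided between Pfkl (53.9 and 54.5 CPM) and Pfkp (50.9 and 46.5), with Pfkm at 4.83 and 4.51. Pfkp made up 46.4% (43.8 to 49) and 44.1% (41.7 to 46.4) of the UMIs of these isoenzymes. Pfkfb3 was at 8.5 and 8.65 CPM.

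Aldolase was almost wholly Aldoa, at 335 and 342 CPM, with Aldoc making up 1.62% (1.27 to 2.04) and 1.21% (0.948 to 1.53). In lower glycolysis Tpi1, which interconverts the triose phosphates, was at 64.7 and 66 CPM, Gapdh, which makes NADH, at 753 and 678, and Pgk1, the first ATP-yielding step, at 165 and 171. Pgam1, a mutase, was at 79.3 and 87.4 CPM, the enolase Eno1 at 417 and 498 and Pkm, which yields pyruvate, at 489.5 and 549. Gapdh, Tpi1, Pgk1, Pgam1 and Eno1 have processed pseudogene copies, and the sources used here do not say how reads shared with such copies were counted. Ldha, the lactate dehydrogenase subunit that favours lactate formation, was at 526 and 559 CPM and Ldhb, the other subunit, at 69.5 and 77.3.

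In the oxidative arm of the pentose phosphate pathway G6pdx, its first enzyme, was at 11.5 and 12.1 CPM, Pgls at 147 and 148 and Pgd at 24.4 and 27.2. In the arm that remakes sugars Rpia was at 42.8 and 41.6 CPM, Rpe at 29.3 and 31.5, Tkt (transketolase) at 148 and 131 and Taldo1 (transaldolase) at 223 and 229. Of pyruvate dehydrogenase, the E1 subunits were at 94.5 and 109.5 CPM for Pdha1 and 69.3 and 69.7 for Pdhb, the E2 subunit Dlat at 26.4 and 26.7 and the inhibitor Pdk1 at 62.5 and 63.9. Leaving out the cytosolic Idh1, the enzymes of the TCA cycle ran from 28.7 CPM (Idh2, lymph node) to 286 (Mdh2, spleen). Idh1 made up 19.9% (16.4 to 23.8) and 11.1% (8.87 to 13.7) of Idh1 and Idh2 UMIs, and the cytosolic Mdh1 44% (42.8 to 45.3) and 42.6% (41.6 to 43.7) of malate dehydrogenase UMIs.

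Between the tissues these genes differed little, as did all genes above the floor. None of the 35 was past 1.5-fold in either direction, where 1.58% of 5048 genes were. The median log2 ratio of spleen over lymph node was 0.03 over the glycolysis genes, 0.027 over the pentose phosphate genes and 0.018 over pyruvate dehydrogenase and the TCA cycle, beside 0.016 over all genes. The widest tissue difference among the 35 was in Hif1a, at 88.5 and 60.3 CPM, which was 1.47-fold higher in lymph node (1.35 to 1.6).

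Also higher in lymph node were Ogdh, the E1 of the 2-oxoglutarate dehydrogenase complex (43.4 and 34.4 CPM), and Dlst, the E2 of the same complex (37.4 and 32.9), with Gapdh, Tkt and Gpi1. Higher in spleen were Idh2, the mitochondrial NADP-dependent isocitrate dehydrogenase (28.7 and 37.6 CPM), Eno1, Pdha1, Pkm, Mdh2 and Ldha. After Hif1a the ratio was widest in Idh2, 1.31-fold (1.15 to 1.49), and Ogdh, 1.26-fold (1.12 to 1.42), and the other 9 of these differed by at most 1.19-fold. Below the floor, Hk2 was 1.87-fold higher in spleen (1.29 to 2.77) and Idh1 1.52-fold higher in lymph node (1.11 to 2.08). Erythroid RNA differed between the same libraries as given above. Without cells holding markers of B, CD8, natural killer or myeloid cells, or 2 or more erythroid UMIs, the tissue medians were 0.062 for glycolysis and 0.01 for pyruvate dehydrogenase and the TCA cycle.

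**Figure D1:**
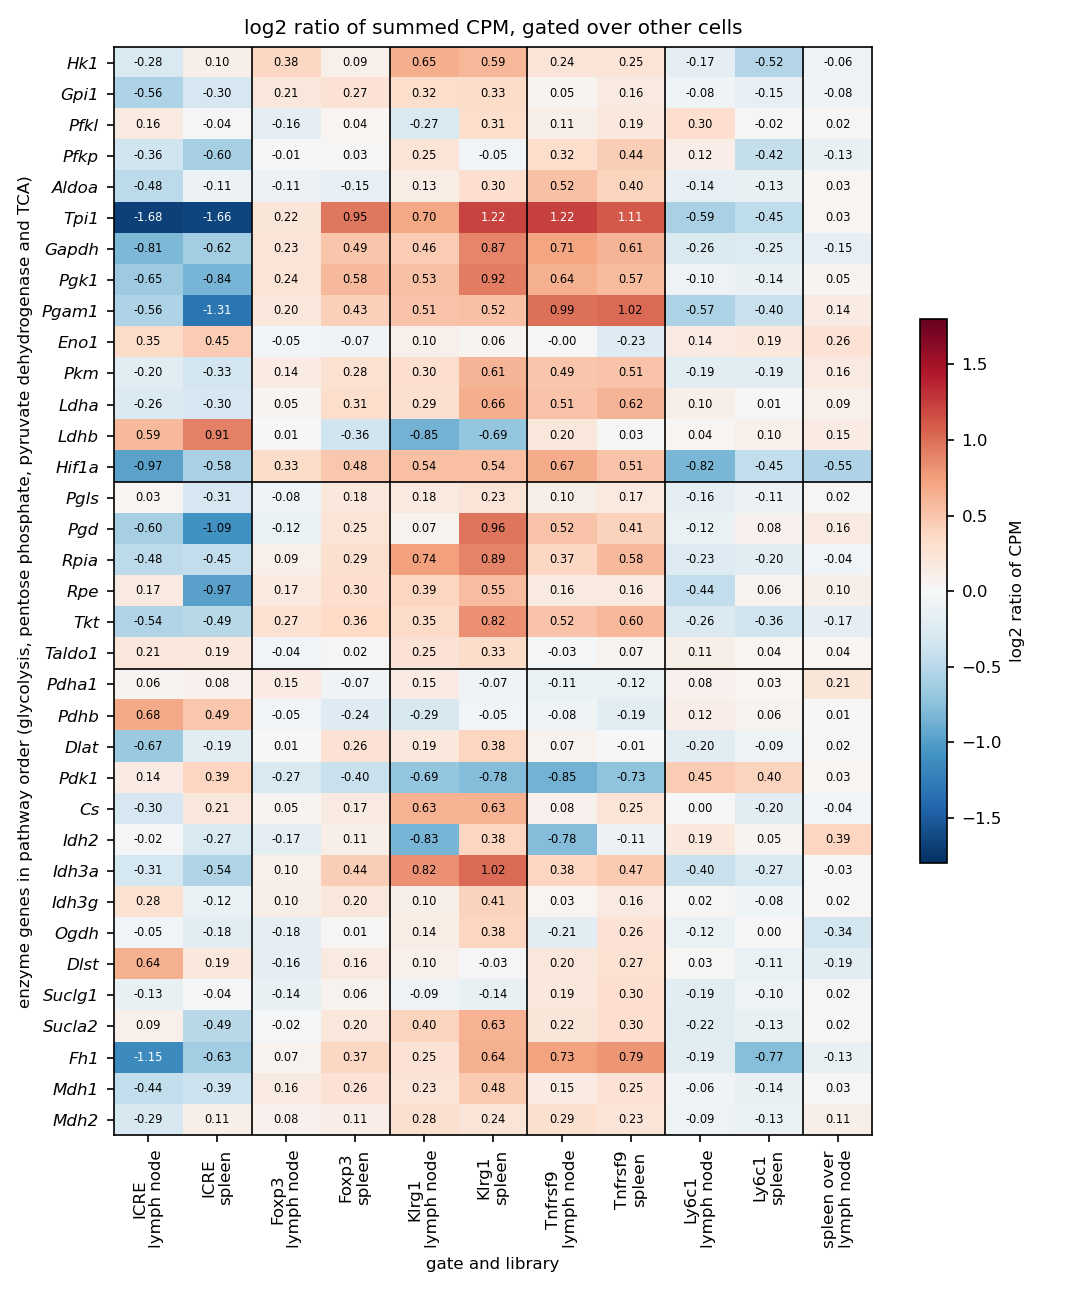
Log2 ratio of CPM for the 35 genes above the floor (rows, pathway order) in each gate and library and between tissues (columns), with red higher and blue lower in the gated cells or in spleen. Tpi1 is lowest in ICRE cells (−1.68 and −1.66), and Pdk1 has the opposite sign to Tpi1 in every gate column. The ratios are not depth-weighted.

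ICRE cells, the shallower side, were compared with Foxp3 cells, both within 1 library. The values here are not depth-weighted, and with that weighting Tpi1 alone of the 35 genes was past 1.5-fold lower in both libraries (2.79% of all genes). Tpi1, Gapdh and Pgk1 of lower glycolysis were lower in ICRE cells, led by Tpi1, which stood at 23.2 against 74.5 CPM in the lymph node library and 32.9 against 104 in the spleen library. Its 15 and 31 UMIs in ICRE cells put it 3.21-fold (1.91 to 5.83) and 3.16-fold (2.19 to 4.7) lower. Ldhb went the other way, at 102 against 67.9 and 117 against 62 CPM, 1.5-fold (1.12 to 1.98) and 1.88-fold (1.49 to 2.36) higher. In ICRE cells the 2 libraries thus lay on the same side for both genes. Over all kept cells Tpi1 stood at 23.3 and 31.4 CPM in groups 1 and 2 of the depth groups given below in lymph node. In spleen it stood at 26.3 and 29 CPM in these groups.

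Past 1.5-fold in both libraries there were 5 of 35 genes lower in ICRE cells and 1 higher, Ldhb, where 4.5% of all genes were lower and 5.25% higher. Beside Tpi1 the lower genes were Gapdh (489.8 against 858 and 560.4 against 863 CPM), Pgk1 (121 against 189 and 126 against 226), Fh1 (18.5 against 41.1 and 27.6 against 42.7) and Pgd (15.5 against 23.4 and 14.9 against 31.6). Fh1 makes malate from fumarate, and Pgd is the second NADPH-yielding enzyme of the pentose phosphate pathway. Fh1 and Pgd rest on 10 to 26 UMIs in ICRE cells, and the interval of the Pgd fold in lymph node ran from 0.783 to 3.28. Pgam1 was lower too, at 60.3 against 88.8 and 44.6 against 110.4 CPM, past 1.5-fold in spleen alone.

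Eno1, between Pgam1 and Pkm in the pathway, was higher in ICRE cells, at 511 against 403 and 645 against 472 CPM, while Pkm stood at 459 against 527 and 501 against 629.8 and Ldha at 454 against 544 and 526 against 649.6. Pdhb stood at 105 against 65.4 and 84.9 against 60.7 CPM and Dlst at 52.5 against 33.7 and 40.3 against 35.4, both higher. Hif1a was lower in ICRE cells, at 54.1 against 106 and 50.9 against 76.1 CPM, and Pdk1 stood at 60.3 against 54.5 and 67.9 against 51.8. The other regulators were near the limit of detection: Hk2 had 0 and 2 UMIs in ICRE cells against 11 and 23 in Foxp3 cells, and Pfkfb3 had 9 and 10 against 24 and 37.

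Over the 14 glycolysis genes the median log2 ratio was −0.42 (interval over genes −0.81 to 0.16) and −0.32 (−0.84 to 0.099), and 10 of the 14 were lower in both libraries, where 1384 of 5048 genes in all were. The 6 pentose phosphate genes had medians of −0.22 and −0.47, the 15 pyruvate dehydrogenase and TCA genes −0.049 and −0.12, and all genes 0.082 and 0.089. Of the markers of other cell types on the 2 sides, those of B cells summed to 138 against 70.8 and 52 against 56.8 CPM, of natural killer cells to 1.55 against 4.57 and 1.06 against 4.32 and of myeloid cells to 1.55 against 5.42 and 4.25 against 8.63. CD8 markers summed to 49.4 against 40.3 and 40.3 against 32 CPM and erythroid genes to 138 against 125 and 0 (interval up to 3.92) against 1.36. Of the CD8, natural killer, myeloid and erythroid markers Ncr1, Klrb1c, Csf1r, Cd68 and Adgre1 in lymph node and Ncr1, Klrb1c, Csf1r, Cd68, Adgre1, Hba-a1, Hba-a2, Hbb-bs and Hbb-bt in spleen had 0 UMIs in ICRE cells. Without cells holding such markers the glycolysis medians were −0.40 and −0.27.

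Depth-weighted, the glycolysis medians were −0.19 and −0.047. Of the 35 genes Tpi1 alone was then past 1.5-fold lower in both libraries (2.79% of all genes) and none was so higher (1.55%). Tpi1 kept log2 ratios of −0.90 and −0.89, and Hif1a of −0.80 and −0.50. Gapdh came to −0.28 and −0.06 and Pgk1 to −0.35 and −0.15, while Eno1 had 0.37 and 0.49 and Ldhb 0.26 and 0.80. Fh1 differed in sign between the libraries, at −0.90 and 0.12. Cycling markers were no part of this weighting. With cycling cells left out as well the glycolysis medians were −0.20 and 0.094, and Gapdh (−0.20 and 0.11) and Pgk1 (−0.28 and 0.10) were on the higher side in spleen, while Tpi1 had −0.70 and −0.53. With CPM taken outside ribosomal protein and mitochondrial genes the median of all genes moved from 0.082 and 0.089 to −0.028 and −0.019, and the glycolysis medians were −0.53 and −0.42.

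**Figure D2:**
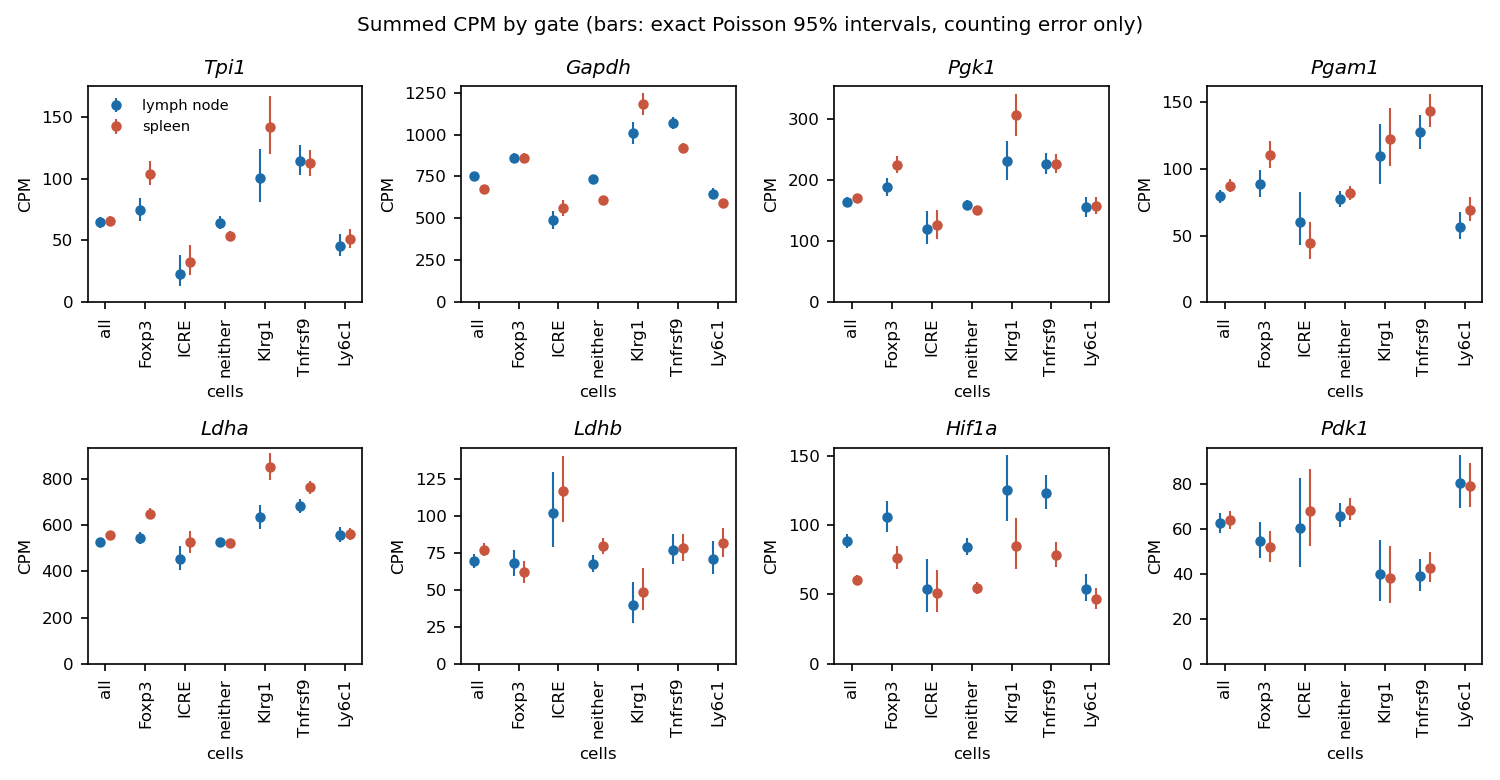
CPM of 8 genes (panels) in all cells and in each gate, with exact Poisson 95% intervals that cover counting error only and 1 colour per library. Tpi1, Gapdh and Pgk1 are lowest in ICRE cells, where Ldhb is highest, and Pdk1 is lowest in Klrg1 and Tnfrsf9 cells. The levels are not depth-weighted, and of these gates ICRE cells had the lowest and Klrg1 cells the highest median UMIs.

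Foxp3 cells were set against cells that had neither a Foxp3 nor an ICRE UMI. No gene of the 35 was past 1.5-fold in both libraries, where 1.11% of all genes were higher and 0.733% lower. Tpi1 stood at 74.5 against 64.2 CPM in the lymph node library and 104 against 53.6 in the spleen library, past 1.5-fold in spleen alone, 1.94-fold (1.71 to 2.19). Gapdh stood at 858 against 734 and 863 against 612 CPM and Pgk1 at 189 against 159.5 and 226 against 151, higher in Foxp3 cells of both libraries. Of the 14 glycolysis genes 9 were higher in both libraries and 2 lower, and of the 6 pentose phosphate genes 3 were higher in both. Over all 5048 genes 1622 were higher in both and 1820 lower.

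Pdk1 and Aldoa ran the other way. Pdk1 stood at 54.5 against 65.9 and 51.8 against 68.5 CPM and Aldoa at 323 against 347 and 319 against 355. Pdhb was at 65.4 against 67.9 and 60.7 against 71.5 CPM. Hif1a stood at 106 against 84.1 and 76.1 against 54.5 CPM, higher in Foxp3 cells of both libraries. Hk2 (3.14 against 3.4 and 5.23 against 6.46 CPM) and Pfkfb3 (6.85 against 8.62 and 8.41 against 8.61) had ratio intervals that span 1.

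The glycolysis medians were 0.17 and 0.27, beside −0.011 and −0.0073 over all genes. Depth-weighted they were −0.079 and 0.031, with Tpi1 at −0.22 and 0.25, Gapdh at −0.083 and 0.032 and Pgk1 at −0.075 and 0.11. Hif1a had depth-weighted log2 ratios of 0.20 and 0.42. Of the 35 genes 12 were then higher and 23 lower in lymph node, and 22 higher and 13 lower in spleen. With cycling cells left out as well these counts were 14 and 21 (lymph node), and 13 and 22 (spleen). Glycolysis medians were then −0.016 and −0.069. Those of pyruvate dehydrogenase and the TCA cycle were −0.034 and −0.024, so for both of these lists the direction of the spleen median turned. The pentose phosphate median of spleen did not turn, and its lowest value in any setting was 0.038. Over all genes the depth-weighted medians were 0.013 and 0.025, and 0.011 and 0.0073 with cycling cells left out as well. How many of all genes were higher or lower was not counted in these settings. Whether the turn is particular to the 35 genes was not tested.

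Of the markers of other cell types on the 2 sides, those of B cells summed to 70.8 against 189 and 56.8 against 144 CPM, of natural killer cells to 4.57 against 25.3 and 4.32 against 18.5 and of myeloid cells to 5.42 against 4.53 and 8.63 against 28. CD8 markers summed to 40.3 against 36.4 and 32 against 46.8 CPM and erythroid genes to 125 against 422 and 1.36 against 0.897. Of the CD8, natural killer, myeloid and erythroid markers Csf1r and Adgre1 in lymph node and Ncr1, Klrb1c, Csf1r, Adgre1, Hba-a2 and Hbb-bt in spleen had 0 UMIs in Foxp3 cells. Without cells holding such markers the glycolysis medians were 0.11 and 0.21.

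Klrg1 cells had higher CPM of several enzymes than cells without a Klrg1 UMI, which were shallower. With depth weighting none of the 35 was past 1.5-fold in both libraries (5.92% of all genes higher and 2.42% lower). Before that weighting 5 of the 35 genes were past 1.5-fold higher in both libraries (6.66% of all genes) and 2 lower (3.72%). Tpi1 stood at 101 against 62.1 CPM in the lymph node library and 142 against 61.1 in the spleen library. Idh3a, a subunit of the NAD-dependent isocitrate dehydrogenase of the TCA cycle, stood at 85.1 against 48.1 and 95 against 46.7 CPM, 1.77-fold (1.38 to 2.25) and 2.03-fold (1.63 to 2.51) higher. The others were Rpia, which makes ribose 5-phosphate (68.5 against 40.9 and 73.4 against 39.5 CPM), Cs, citrate synthase (107 against 69.4 and 105 against 67.6) and Hk1 (70.8 against 45 and 65.6 against 43.5). All of the 3 pathways had a gene among these 5.

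Ldhb and Pdk1 were the lower genes. Ldhb stood at 39.8 against 71.7 and 49 against 79.1 CPM, 1.8-fold (1.29 to 2.59) and 1.62-fold (1.22 to 2.19) lower. Pdk1 stood at 39.8 against 64.2 and 38.2 against 65.6 CPM, 1.61-fold (1.15 to 2.32) and 1.72-fold (1.25 to 2.43) lower. Pdhb (57.5 against 70.2 and 67.6 against 69.8 CPM) and Suclg1, the alpha subunit of succinyl-CoA synthetase (88.4 against 94.2 and 87.1 against 95.7), were below the other cells by less, with ratio intervals that span 1. Hif1a stood at 125 against 85.8 and 85.2 against 58.6 CPM. Hk2 and Pfkfb3 each had 1 and 5 UMIs in Klrg1 cells, and only the Pfkfb3 interval in lymph node lay clear of 1.

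The glycolysis medians were 0.31 and 0.53, with 11 of 14 genes higher in both libraries (2221 of 5048 genes in all). All 6 pentose phosphate genes were higher in both, with medians of 0.30 and 0.69, and the pyruvate dehydrogenase and TCA genes had 0.15 and 0.38, beside 0.072 and 0.089 over all genes. Of the 35 genes 5 were past 1.5-fold higher in lymph node and 13 in spleen, beside 9.37% and 14.3% of all genes. Depth-weighted, 2 and 1 were, with medians over all genes of 0.10 and 0.11. The matching share of all genes was not counted by library in that setting. Whether the libraries differ in these numbers of genes was not tested. Gapdh stood at 1009 against 734 and 1179.9 against 645 CPM, Ldha at 632 against 518 and 851 against 539.6 and Tkt at 185 against 145 and 221 against 125, each past the threshold in spleen alone.

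Depth-weighted, none of the 35 was past 1.5-fold in both libraries, where 5.92% of all genes were higher and 2.42% lower. Hk1 had log2 ratios of 0.60 and 0.56, Rpia 0.61 and 0.57 and Idh3a 0.50 and 0.57. On the lower side Ldhb had −0.64 and −0.43 and Pdk1 −0.53 and −0.51. Tpi1 came from 0.70 and 1.22 to 0.11 and 0.22, and the glycolysis medians to 0.057 and 0.20. Klrg1 cells had the highest CPM of cycling markers of the 5 gates. With cycling cells left out as well the glycolysis medians were 0.21 and 0.28, with Tpi1 at 0.37 and 0.74. Outside ribosomal protein and mitochondrial genes the median of all genes moved from 0.072 and 0.089 to −0.076 and −0.096, and the glycolysis medians were 0.16 and 0.35.

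Of the markers of other cell types on the 2 sides, those of B cells summed to 121 against 161 and 83.2 against 116 CPM, of natural killer cells to 24.3 against 17.9 and 2.94 against 14.3 and of myeloid cells to 2.21 against 4.77 and 2.94 against 22.5. CD8 markers summed to 22.1 against 39.2 and 39.2 against 42.6 CPM and erythroid genes to 133 against 340.4 and 1.96 against 0.896. Of the CD8, natural killer, myeloid and erythroid markers Cd8a, Lyz2, Csf1r and Adgre1 in lymph node and Ncr1, Klrb1c, Csf1r, Adgre1, Hba-a2, Hbb-bs and Hbb-bt in spleen had 0 UMIs in Klrg1 cells. Without cells holding such markers the glycolysis medians were 0.40 and 0.49.

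Tnfrsf9 cells had higher CPM of Tpi1, Gapdh, Pgam1 and Fh1 than cells without a Tnfrsf9 UMI in both libraries, and depth-weighted none of these was past 1.5-fold in both. Of the 35 genes 4 were past 1.5-fold higher in both libraries (4.75% of all genes) and 1 lower (1.58%). Tpi1 stood at 114 against 49 CPM in the lymph node library and 112 against 52.2 in the spleen library, 2.34-fold (2.03 to 2.68) and 2.15-fold (1.9 to 2.43) higher. Pgam1 stood at 127 against 64.1 and 143 against 70.7 CPM, 1.98-fold (1.75 to 2.25) and 2.03-fold (1.82 to 2.26) higher. Gapdh stood at 1068 against 653 and 921 against 604 CPM and Fh1 at 55.2 against 33.3 and 52.1 against 30.1, so 3 of the 4 belong to glycolysis and 1 to the TCA cycle.

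Other glycolysis genes lay on the same side by less. Pgk1 stood at 227 against 146 and 228 against 154 CPM, Ldha at 681 against 477 and 763 against 498, Pkm at 628 against 446 and 713 against 499 and Aldoa at 436 against 303 and 420.1 against 319. Of the 14 glycolysis genes Eno1 alone was not higher, at 416 against 417 and 439 against 515 CPM. Ldhb, lower in Klrg1 cells, was at 77.2 against 67.1 and 78.4 against 76.9 here. Of the regulators Hif1a stood at 123 against 77.4 and 78.2 against 54.9 CPM, Pfkfb3 at 11.5 against 7.56 and 14.6 against 6.87 and Hk2 at 5.74 against 2.32 and 7.04 against 5.55.

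Pdk1 was the lower gene, at 38.9 against 69.98 and 42.5 against 70.3 CPM, 1.8-fold (1.48 to 2.2) and 1.65-fold (1.4 to 1.97) lower. The subunits of the dehydrogenase that it inhibits showed smaller differences, with Pdha1 at 89 against 96.2 and 103 against 112 CPM and Pdhb at 66.3 against 70.3 and 63.1 against 71.7. Idh2 was at 18.5 against 31.9 and 35.4 against 38.2 CPM, with a lower level in lymph node (1.72-fold, 1.3 to 2.32) and an interval that spans 1 in spleen.

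The glycolysis medians were 0.50 and 0.48, with 13 of 14 genes higher in both libraries (2563 of 5048 genes in all), beside 0.079 and 0.09 over all genes. The pentose phosphate medians were 0.26 and 0.29, and those of pyruvate dehydrogenase and the TCA cycle 0.076 and 0.25. Depth-weighted, the glycolysis medians were 0.27 and 0.20, and none of the 35 was past 1.5-fold in both libraries (1.98% of all genes higher and 0.614% lower). Tpi1 then had log2 ratios of 0.71 and 0.32, Pgam1 0.67 and 0.46, Hif1a 0.61 and 0.44 and Pdk1 −0.71 and −0.52. With cycling cells left out as well the glycolysis medians were 0.33 and 0.23, with Tpi1 at 0.71 and 0.66.

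Of the markers of other cell types on the 2 sides, those of B cells summed to 63.1 against 188 and 31.8 against 139 CPM, of natural killer cells to 18.2 against 18.5 and 5.73 against 15.9 and of myeloid cells to 5.42 against 4.34 and 6.51 against 25.7. CD8 markers summed to 32.2 against 39.8 and 26.3 against 47.2 CPM and erythroid genes to 124 against 389.7 and 0.521 against 1.09. Of the CD8, natural killer, myeloid and erythroid markers Csf1r in lymph node and Csf1r, Adgre1, Hba-a2, Hbb-bs and Hbb-bt in spleen had 0 UMIs in Tnfrsf9 cells. Without cells holding such markers the glycolysis medians were 0.37 and 0.48, with Tpi1 at 1.01 and 1.13.

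**Figure D3:**
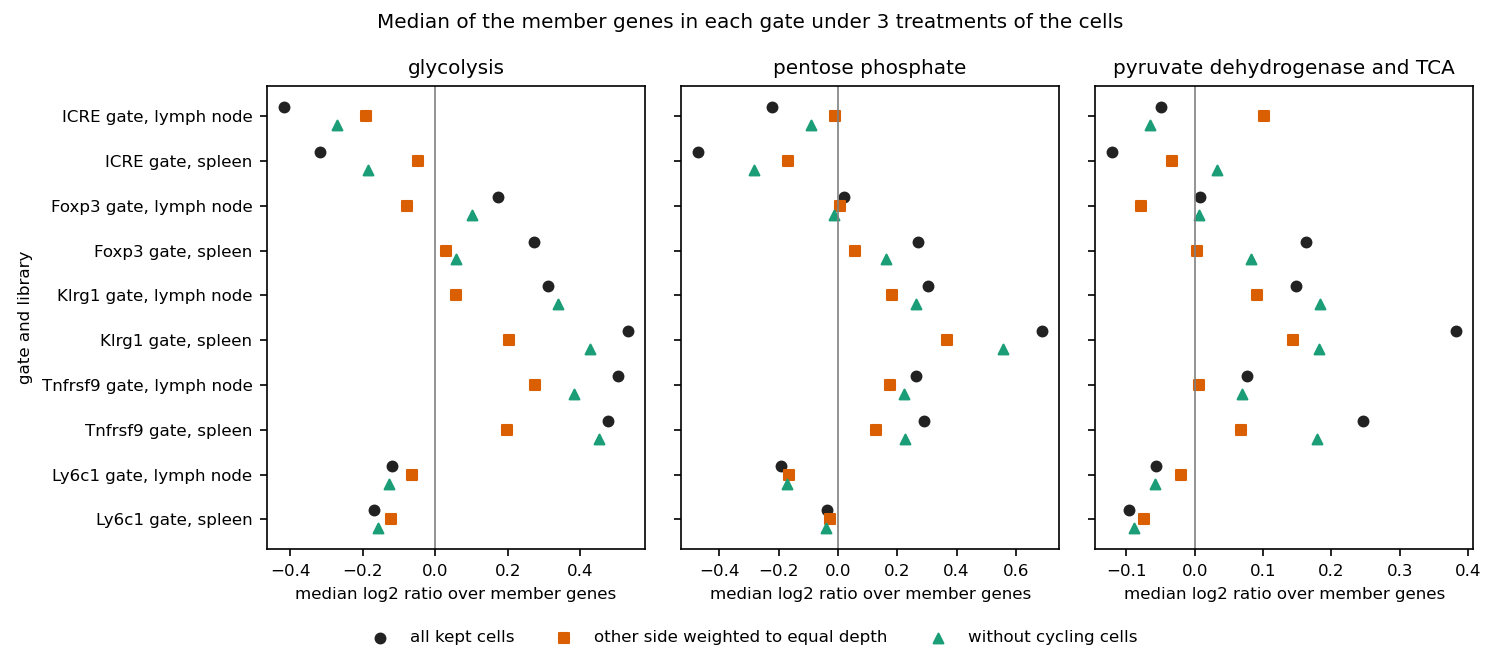
Median log2 ratio of the genes of each pathway (panels) in each gate and library, for all kept cells, depth-weighted (equal depth in the legend), and without cycling cells. Depth weighting brings the glycolysis medians of ICRE cells from −0.42 and −0.32 to −0.19 and −0.047 and those of Tnfrsf9 cells from 0.50 and 0.48 to 0.27 and 0.20.

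Ly6c1 cells were set against cells without a Ly6c1 UMI, whose depth was close to theirs (medians of 2093 and 1949.5 UMIs). None of the 35 genes was past 1.5-fold in both libraries, where 0.119% of all genes were higher and 2.26% lower. Hif1a stood at 54.1 against 95.8 CPM in the lymph node library and 46.7 against 63.7 in the spleen library, 1.77-fold (1.47 to 2.15) and 1.36-fold (1.15 to 1.63) lower. Tpi1 stood at 45.8 against 68.8 and 50.9 against 69.8 CPM and Pgam1 at 56.7 against 84.1 and 69.5 against 91.9, also lower. Pdk1 was higher, at 80.3 against 58.7 and 79.1 against 60.1 CPM, 1.37-fold (1.15 to 1.61) and 1.32-fold (1.14 to 1.52).

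In the same comparison Eno1 stood at 452 against 409 and 552 against 484 CPM, Idh2 at 31.9 against 28 and 38.7 against 37.3 and Fh1 at 34.5 against 39.4 and 22.5 against 38.3. Hk2 (2.18 against 3.34 and 3.6 against 6.46 CPM) and Pfkfb3 (10.04 against 8.18 and 9.89 against 8.34) had ratio intervals that span 1. The glycolysis medians were −0.12 and −0.17, beside −0.064 and −0.093 over all genes, and 9 of 14 genes were lower in both libraries, where 2552 of 5048 genes in all were. Depth-weighted, Hif1a had log2 ratios of −0.78 and −0.44 and Pdk1 of 0.40 and 0.36.

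Of the markers of other cell types on the 2 sides, those of B cells summed to 107 against 169 and 42 against 132 CPM, of natural killer cells to 6.55 against 20.9 and 0.599 against 16.8 and of myeloid cells to 1.31 against 5.3 and 7.79 against 24.7. CD8 markers summed to 29.7 against 39.8 and 26.7 against 46.3 CPM and erythroid genes to 131 against 367 and 1.5 against 0.827. Of the CD8, natural killer, myeloid and erythroid markers Lyz2 and Csf1r in lymph node and Ncr1, Klrb1c, Csf1r, Adgre1, Hba-a2 and Hbb-bs in spleen had 0 UMIs in Ly6c1 cells. Without cells holding such markers the glycolysis medians were −0.15 and −0.17.

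The subunit makeup of lactate dehydrogenase had the same gates at its ends in both libraries. Over all cells Ldha made up 88.3% (87.6 to 89) and 87.8% (87.2 to 88.5) of Ldha and Ldhb UMIs. The share was lowest in ICRE cells, at 81.7% (77.3 to 85.5) and 81.8% (78.5 to 84.8), and highest in Klrg1 cells, at 94.1% (91.9 to 95.8) and 94.6% (92.9 to 95.9). These intervals do not reach those of all cells in the same library. In between, Foxp3 cells had 88.9% and 91.3%, Tnfrsf9 cells 89.8% and 90.7%, cells with neither Foxp3 nor ICRE 88.6% and 86.8% and Ly6c1 cells 88.7% and 87.3%, and in lymph node the intervals of these 4 overlap. With each cell thinned to 1200 UMIs, 252 and 525 shallower cells were left out. The share was then 79.3% and 79.8% in ICRE cells, 85.9% and 85.5% in all cells and 91.9% and 92.8% in Klrg1 cells, the same order. Thinning does not change which cells of a gate were shallow or deep, so it cannot show whether the share follows depth. No depth-weighted share was taken, and the share by depth group is given below. Of the other pairs, Mdh1 made up 42.6% (36.4 to 48.9) and 36.5% (32.2 to 41) of malate dehydrogenase in ICRE cells, against 45% and 44.7% in Foxp3 cells. Pfkp made up 40% (28 to 52.9) and 35.7% (25.6 to 46.9) of phosphofructokinase in ICRE cells and 48.3% and 44.4% in Foxp3 cells. The Hk2, Aldoc and Idh1 shares in ICRE cells rest on at most 7 UMIs of the rarer gene, and Hk2 was at 0 of 30 UMIs in lymph node, which allows up to 11.6%.

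**Figure D4:**
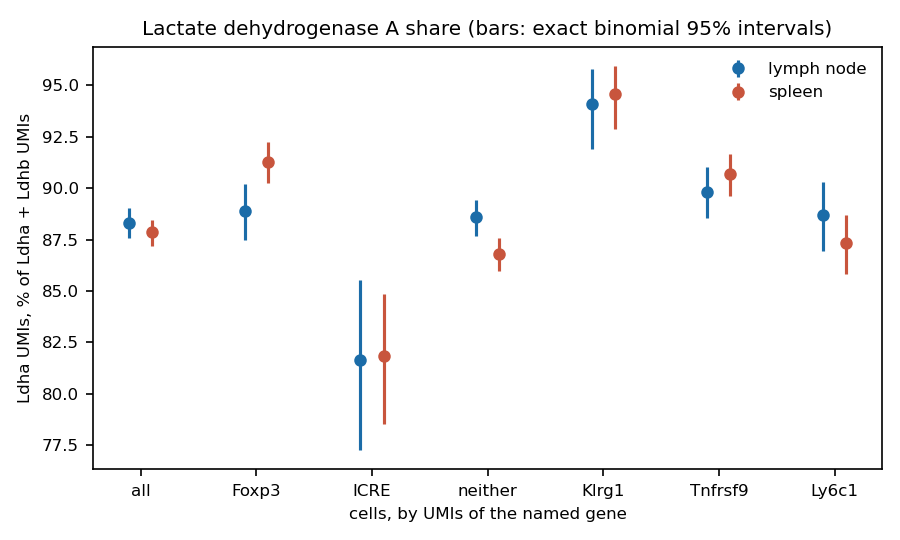
Share of Ldha among Ldha and Ldhb UMIs (y axis, percent, not starting at 0) in all cells and each gate, with exact binomial 95% intervals. ICRE cells sit at 81.7% and 81.8% and Klrg1 cells at 94.1% and 94.6%, on opposite sides of all cells.

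Since the gates differed in UMIs per cell, the genes were also read across 4 depth groups, near-equal numbers of cells ordered by UMIs from group 1 to group 4, a split added after the data were seen. Tpi1 stood at 23.3, 31.4, 40.1 and 97.9 CPM from group 1 to group 4 of lymph node, and at 26.3, 29, 41.3 and 102 in spleen. Gapdh stood at 448, 482, 530.2 and 1025 CPM in lymph node and 443, 453, 501 and 905 in spleen. For both genes the widest step lay between groups 3 and 4. Pgam1 stood at 42.8 and 109.7 CPM in groups 1 and 4 of lymph node and 41.8 and 125 in spleen. The same groups had Pgk1 at 98.7 and 224 CPM in lymph node and at 107 and 230.1 CPM in spleen. Of the 35 genes, 10 in lymph node and 8 in spleen were past 1.5-fold higher in group 4 than in group 1 (9.41% and 9.14% of all genes), and 1 in each was lower (15.2% and 15.1%). The median log2 ratio of group 4 over group 1 was 0.33 and 0.32 over the 35 genes and −0.12 and −0.13 over all genes.

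Other genes ran against depth or did not follow it. Ldhb stood at 86.2, 88, 72 and 58 CPM in lymph node and 114, 92.6, 76.9 and 62.6 in spleen, where it was the lower gene. Pdk1 was the lower gene in lymph node, at 81.8, 63.7, 69.6 and 53.9 CPM, with 79.3, 74.1, 66.5 and 55 in spleen. Taldo1 stood at 239 and 215 CPM in groups 1 and 4 of lymph node and 218 and 225 in spleen. The Ldha share was 85.0% in group 1 and 91.4% in group 4 of lymph node, and 80.9% and 91.4% in spleen. Cycling markers summed to 7.55 and 206 CPM in groups 1 and 4 of lymph node and 10.7 and 151 in spleen, at median UMIs of 1353 and 4136 and of 1289 and 3956. The part of cycling cells in the levels of group 4 was not tested.

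**Figure D5:**
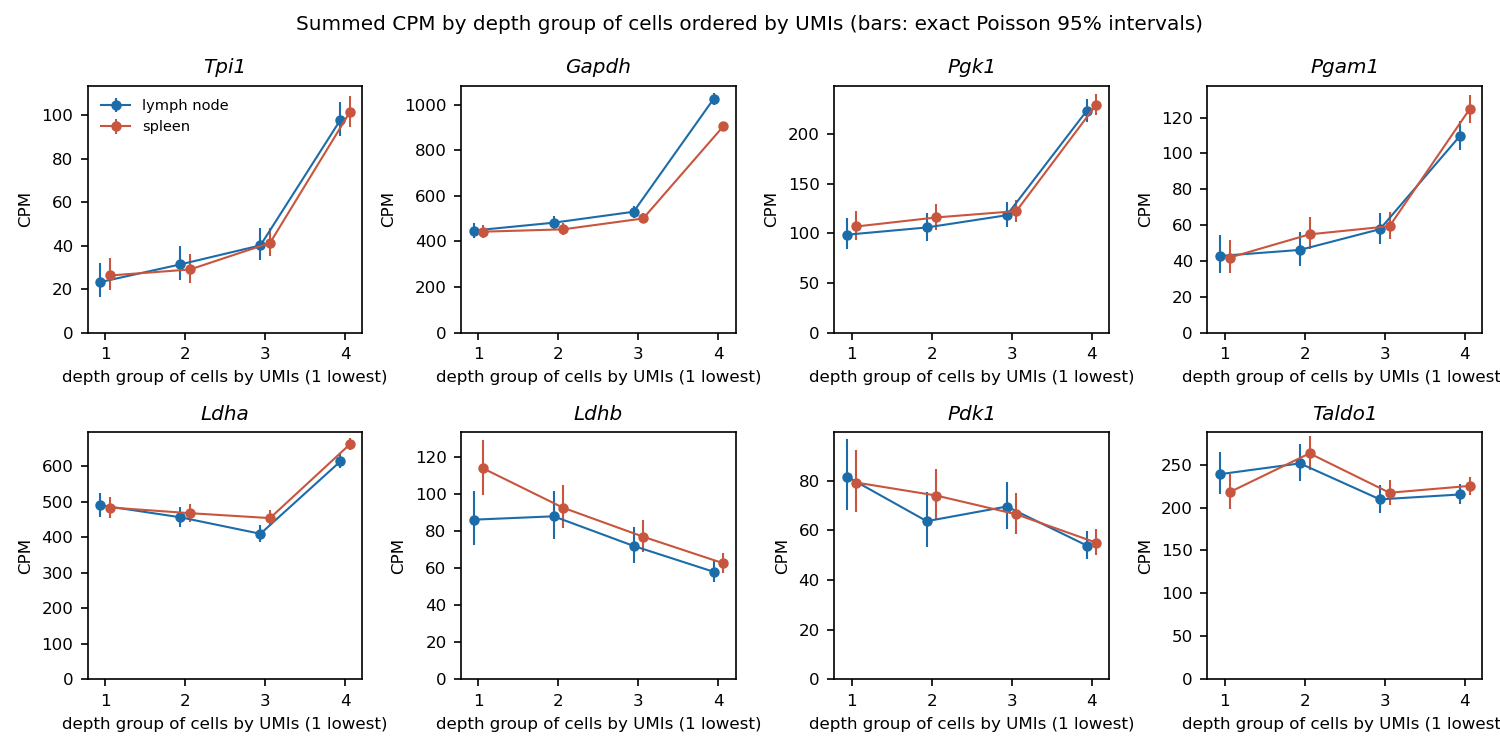
CPM of 8 genes (panels) in 4 depth groups of the kept cells ordered by UMIs per cell, from 1 (lowest) to 4 (highest), with exact Poisson 95% intervals and 1 line per library. Tpi1, Gapdh, Pgk1 and Pgam1 are highest in group 4, while Ldhb and Pdk1 are lower there than in group 1.

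Other genes of these pathways came from a list of 53, of which 52 were in the matrices and 18 passed the floor. Past 1.5-fold in both libraries there were none of the 18 in ICRE, Foxp3 or Ly6c1 cells, 1 higher and 1 lower in Klrg1 cells, and 2 higher in Tnfrsf9 cells, the same background shares applying as above. These are named after their values were seen. In Klrg1 cells Sdhd, a membrane subunit of succinate dehydrogenase, stood at 107 against 70.4 and 127 against 71.4 CPM, and Eno3, the muscle-type enolase, at 13.3 against 20.6 and 15.7 against 35.2. In Tnfrsf9 cells Eno3 stood at 35.4 against 15.2 and 88.1 against 17.8 CPM, where Eno1 was not higher, and Pdk3, a relative of Pdk1, at 35.1 against 21.8 and 40.9 against 21.4. Eno3 and Pdk3 thus lay on the opposite side from Eno1 and Pdk1 in Tnfrsf9 cells of spleen. Eno3 was also the 1 gene of the 18 past 1.5-fold between tissues, at 20.1 and 34 CPM. Of the glucose transporters Slc2a3 was at 25.3 and 21.1 CPM and Slc2a1 at 16.9 and 18.9, and of the lactate transporters Slc16a1 was at 9.19 and 8.47 and Slc16a3 at 7.2 and 7.21.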

How the data were processed

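Single-cell RNA was measured in 2 libraries, 1 per tissue. The authors deposited UMI counts per gene and barcode, made with Cell Ranger 3.0.1 on mm10 according to the submitters' processing notes. The smallest barcode held 500 UMIs. Cells needed 500 detected genes and no more than 10% mitochondrial UMIs, which left out 259 and 297 barcodes. No doublet caller was run, so doublets may remain.

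UMIs were summed over the cells of a gate and divided by their total in Python 3.11.15 with numpy 2.4.6, scipy 1.17.1 and pandas 2.3.3. Intervals are exact: Poisson for CPM, Clopper-Pearson for shares, conditional binomial for ratios, order statistics for medians. PCR and capture error are not in them. A call needs 20 CPM as the mean of both libraries and a 1.5-fold ratio. Named are genes past it in both libraries, up to 3 the other way, and between tissues 6 higher and 6 lower, over 11 comparisons. A side with 0 UMIs was set to 3. Hif1a, Pfkfb3, Pdk1, Hk2 and isoenzyme pairs were always given, and further genes to place a step among its neighbours. Alternatives are listed under the closing section. The 2 Ensembl rows of Aldoa were summed. The code was tested on simulated data. Members and lists were chosen with earlier results of these data known.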

Additional observations from a re-analysis of the deposited data

How the results depend on the processing

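No paired analysis was possible because each tissue has 1 library and no replicate numbers. The weighting without cycling cells, the alternatives for the pentose phosphate list and the depth groups were chosen after seeing the data. Over the list medians and isoenzyme shares, 598 values stayed within the interval of the reported value under an alternative, 51 moved out of it, and 2 whose interval lay clear of 0 changed sign. For single genes the numbers were 697, 164 and 15. Precision is limited by gates of 223 to 505 cells, and the thinned gates leave few UMIs for the rarer genes. For the values below the cause was not tested.

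Depth weighting brought the glycolysis median to −0.079 (Foxp3, lymph node) and 0.057 (Klrg1, lymph node) and the pyruvate dehydrogenase and TCA median to 0.0031 (Foxp3, spleen), and Fh1 in spleen ICRE cells to 0.12. Without cycling cells as well, Foxp3 cells of spleen had medians of −0.069 (glycolysis) and −0.024 (pyruvate dehydrogenase and TCA), and spleen ICRE cells had log2 ratios of 0.26 (Fh1), 0.10 (Pgk1) and 0.11 (Gapdh).

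With cells thinned to 1200 UMIs the pyruvate dehydrogenase and TCA median of spleen Foxp3 cells was −0.024 and Fh1 of spleen ICRE cells 0.36. With the gates also read after thinning, Fh1 was 0.46 there, Pgk1 0.052 (ICRE, lymph node), Aldoa 0.051 (Foxp3, lymph node), Rpia −0.33 (Klrg1, lymph node) and Cs −0.15 (Klrg1, spleen). Medians were then −0.17 (pyruvate dehydrogenase and TCA, Foxp3, lymph node), 0.018 (pentose phosphate, Klrg1, lymph node) and 0.013 (pentose phosphate, Tnfrsf9, spleen). With gates at 2 UMIs, medians were 0.26 (pyruvate dehydrogenase and TCA, ICRE, lymph node), −0.15 (the same, Ly6c1, spleen), 0.38 (pentose phosphate, Foxp3, spleen) and 0.64 (glycolysis, Tnfrsf9, spleen), and Fh1 was 0.10 (ICRE, spleen). Among cells with a Foxp3 or ICRE UMI, the tissue median of pyruvate dehydrogenase and TCA was 0.091, Gapdh 0.029 between tissues and Eno1 −0.13 (Ly6c1, lymph node). Aldoa of lymph node Foxp3 cells was 0.033 as a mean over cells and 0.033 without the 6% of cells with the most UMIs.

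Thinned to 1200 UMIs, the Ldha share of lymph node was 85.9% (all cells), 85.6% (Foxp3), 91.9% (Klrg1) and 84.6% (Tnfrsf9). In spleen it was 85.5%, 89.8%, 92.8% and 88.1%, and 85.2% in Ly6c1 cells. The Hk2 share was 3.76% (all cells, lymph node) and 15.7% (Foxp3, spleen). With gates read after thinning, the Ldha share was 84.5% and 88.3% in Foxp3 cells of lymph node and spleen, 84.7% and 87.2% in Tnfrsf9 cells and 83.5% in spleen Ly6c1 cells. In Foxp3 cells the Hk2 share was then 9.76% and 16%, the Pfkp share 41.3% and 37%, and in spleen the Aldoc share 2.23% and the Idh1 share 22.2%.

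Without cells holding markers of other types, lymph node had Ldha shares of 86.3% (all cells), 86% (Foxp3), 86.3% (Tnfrsf9) and 86.5% (Ly6c1), an Hk2 share of 4.06% and an Idh1 share of 12.1% in Foxp3 cells. Without the 6% of cells with the most UMIs, the Ldha share of lymph node and spleen was 85.3% and 85.2% (all cells), 85% and 88.3% (Foxp3), 90.4% and 90.8% (Klrg1), 83.7% and 86.1% (Tnfrsf9), and 85.6% in spleen Ly6c1 cells. The Hk2 share of lymph node was then 3.49%, and the Pfkp share of spleen Foxp3 cells 39.7%.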
